A study of Mus musculus with 15 samples.

Results

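The comparison described here set CD64+ macrophages (mϕ) against CD103+CD11b- dendritic cells (DCs), the conventional DC subset 1 (cDC1) of the gut, both sorted from the lamina propria (LP) of the mouse small intestine. Its members were the 3 arrays whose cell type label reads CD64+ and the 3 whose label reads CD64-CD103+CD11b-, 6 of 15 arrays in the series, and all 19938 genes that had a probeset of their own. CD64+ mϕ were gated as CD45+Ly6C-MHCII+CD64+CD11b+ cells, and DCs as CD64- cells with CD11c and MHCII that were then divided by CD103 and CD11b. The remaining arrays held CD103+CD11b+ DCs, CD103-CD11b+ DCs and CD103-CD11b- DCs, with 3 arrays each, and were used to estimate the spread and to find genes that mϕ and CD103+CD11b- DCs share. All cells came from untreated wild-type C57BL/6 mice, male and female, aged 6 to 12 weeks. RNA of the sorted cells was amplified and hybridized to single-channel Mouse Gene 1.0 ST arrays. The replicates are called biological samples in the study's methods, which do not say how many mice were pooled for each, so p-values measure the spread between these samples.

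Intestinal mϕ are replenished in adult mice largely by blood monocytes and depend on CSF1R. They stay in the mucosa, clear dying cells and microbes, and present antigen locally. cDC1 arise from FLT3-dependent precursors under the transcription factors IRF8 and BATF3, take up dead cells through receptors such as CLEC9A, cross-present their antigens to CD8+ T cells and migrate to the draining lymph node through CCR7. Both populations carry MHCII and CD11c in the gut, so CD64, the high-affinity IgG receptor encoded by *Fcgr1*, is used to keep them apart.

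All values are log2 signals after the authors' array-wide normalization, and a difference is the mean of the CD64+ arrays minus the mean of the CD103+CD11b- arrays, so that a difference of 1 is 2-fold. A gene is said to be called, or to rise or fall in mϕ, when its limma adjusted p lay under 0.01 and its difference exceeded 1 in size. The genes used for sorting followed the labels. *Fcgr1* gave 9.08, 8.69 and 9.0 in CD64+ mϕ, against 3.92, 3.69 and 3.88 in CD103+CD11b- DCs. *Itgam*, which encodes CD11b, gave 10.07, 10.23 and 10.42 in mϕ, against 4.76, 5.05 and 4.99 in the DCs. *Itgae*, which encodes CD103, gave 5.25, 4.87 and 5.17 in mϕ, against 10.96, 10.86 and 10.87 in the DCs. *Itgax* (CD11c, difference -0.34), *Ptprc* (CD45, 0.55) and *H2-Ab1* (MHCII, 0.11) were not called. The gates used CD45, MHCII, CD64 and CD11b in both populations, and CD103 and CD11c in the DCs alone, so levels of these genes where a gate used them check the labels and are no finding.

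Arrays of the same population correlated at 0.978 or above, and CD64+ replicate 2 stood apart from the other CD64+ arrays. In it 147 genes lay more than 1 above both other CD64+ arrays and 72 more than 1 below both, against at most 28 in either direction on any of the other 5 arrays. Among the genes it had more of were the Paneth cell defensin *Defa24* (3.83, 9.58 and 3.66 on CD64+ replicates 1, 2 and 3), the epithelial lectin *Reg3b* (7.94, 11.58 and 7.97) and the keratin *Krt8* (7.70, 9.70 and 7.23). It had less of *Timd4*, a phosphatidylserine receptor (9.53, 8.39 and 9.45), of *Cd4* (9.55, 8.42 and 9.55) and of *Ccl8* (10.45, 8.51 and 10.51). Results below are given with all arrays, and where it changed a count by over 1.5 times also without this one.

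**Figure D1:**
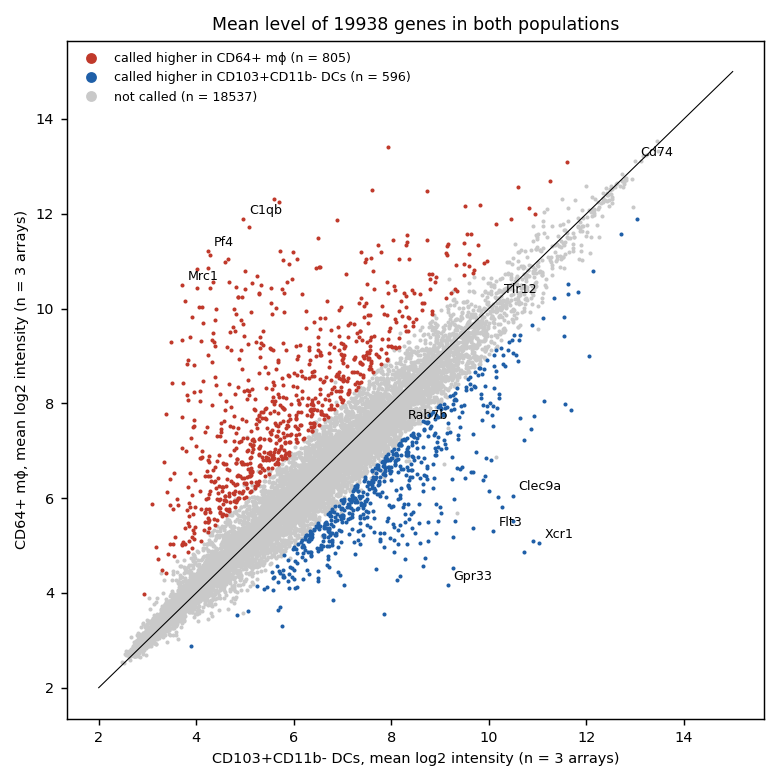
Mean log2 intensity of each of 19938 genes in CD64+ mϕ (vertical axis) and CD103+CD11b- DCs (horizontal axis), 3 arrays each; the line marks equal levels. The 805 genes called higher in mϕ reach farther from the line than the 596 called higher in the DCs.

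Of 19938 genes tested, 805 (4.04%) were called higher and 596 (2.99%) lower in CD64+ mϕ than in CD103+CD11b- DCs, 1401 (7.03%) in all. Counts in gene lists below are to be read beside the shares of 4.04% and 2.99%. The larger differences lay mostly on the mϕ side. At more than 4-fold, 341 genes were higher and 141 lower, at more than 16-fold 95 and 14, and at more than 32-fold 48 and 4. All 3 CD64+ arrays lay above all 3 CD103+CD11b- arrays for 3346 genes (16.8%) and below them for 3137 (15.7%). Without CD64+ replicate 2, 861 genes were higher and 645 lower, of which 774 and 550 were also called with it.

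The 15 genes that rose most in CD64+ mϕ were led by *Pf4*, a platelet-type chemokine also made by tissue mϕ, which gave 11.36, 11.01 and 11.26 in mϕ, against 3.98, 4.36 and 4.39 in CD103+CD11b- DCs (difference 6.97, SE 0.19, 125-fold, adjusted p = 2.36e-12). All 3 chains of C1q, which start the classical complement pathway, were among them. *C1qa* gave 12.37, 12.23 and 12.35 in mϕ, against 5.18, 5.71 and 5.92 in the DCs (difference 6.71, SE 0.39). *C1qb* (6.92, SE 0.55) and *C1qc* (6.55, SE 0.72) differed by as much, with more spread over the arrays. *C3ar1* (6.83) and *C5ar1* (6.2) encode the receptors for the complement fragments C3a and C5a. *Csf1r*, the receptor on which most tissue mϕ depend, gave 11.72, 11.39 and 12.03 in mϕ, against 4.79, 5.28 and 5.18 in the DCs (difference 6.63, SE 0.20, adjusted p = 5.30e-12). The others were the mannose receptor *Mrc1* (6.78), the scavenger receptor *Msr1* (6.40), the lectin *Clec4a1* (6.61), the metalloproteases *Mmp9* (6.42) and *Mmp13* (5.98), the guanylate-binding protein *Gbp2b* (6.40), the monocyte chemoattractant *Ccl7* (6.40) and the IgG receptor *Fcgr4* (6.15). Their levels on the CD103+CD11b- arrays lay between 3.60 and 5.92, and the arrays carry no call of presence or absence at such levels.

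The 15 genes that fell most in CD64+ mϕ were led by *Xcr1*, the receptor for XCL1 that defines cDC1, which gave 5.72, 4.75 and 4.66 in mϕ, against 11.03, 10.92 and 11.12 in CD103+CD11b- DCs (difference -5.98, SE 0.26, adjusted p = 1.69e-10). *Serpinb6b*, an intracellular serpin, gave 4.87, 4.78 and 4.92 in mϕ, against 10.63, 10.73 and 10.80 in the DCs (difference -5.86, SE 0.13). *Itgae* (-5.80) belongs to the gate of the DCs. *Gpr33* (-5.00) is an orphan receptor, *Actn1* (-4.99) an actin cross-linker and *Btla* (-4.72) an inhibitory receptor that binds HVEM. *Flt3*, whose ligand drives DC development, gave 5.29, 5.46 and 5.17 in mϕ, against 10.14, 9.95 and 10.18 in the DCs (difference -4.78, SE 0.12, adjusted p = 1.12e-12). *Clec9a*, the receptor for actin exposed on dead cells, gave 6.27, 6.47 and 5.42 in mϕ, against 10.66, 10.31 and 10.49 in the DCs (-4.43, SE 0.26). The others were *Gpr141b* (-4.45), the protease *Adam8* (-4.30), the fatty acid receptor *Ffar4* (-4.30), *Ctla2b* (-4.16), the glutaminyl cyclase *Qpct* (-4.08), the stem cell factor receptor *Kit* (-4.08) and the kinase *Lrrk2* (-3.97). For each of these 30 genes the groups did not overlap, which was a condition of choosing them.

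**Figure D2:**
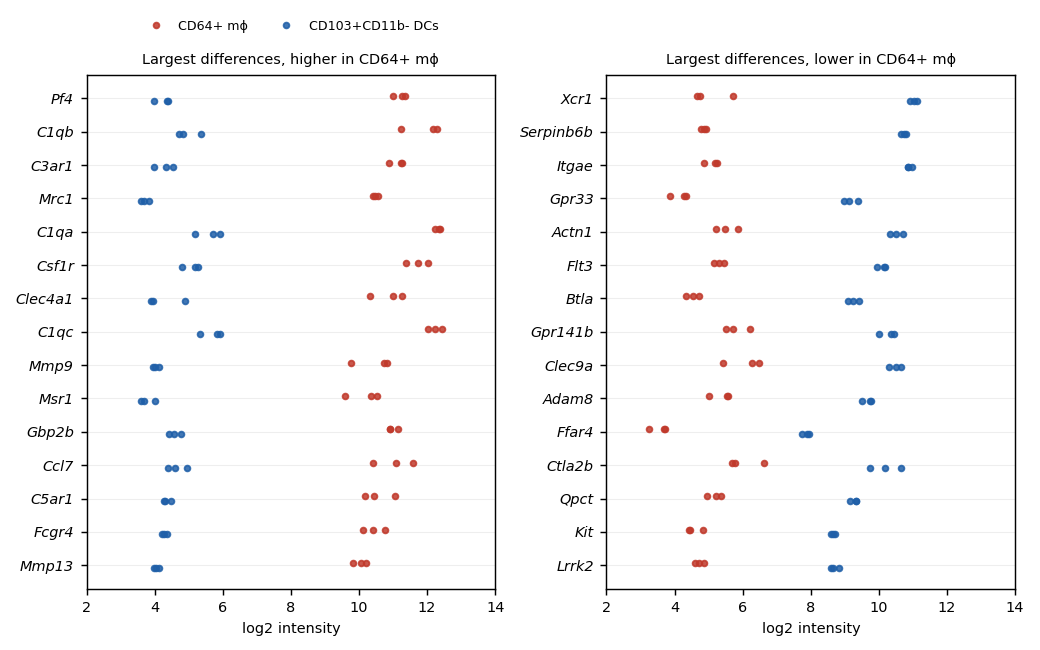
Log2 intensity on each of the 6 arrays (points) for the 15 genes with the largest positive and the 15 with the largest negative difference, CD64+ mϕ in red and CD103+CD11b- DCs in blue. Arrays of a population lie close together relative to the gap between populations, with *Pf4* at 11.01 to 11.36 in mϕ and *Xcr1* at 10.92 to 11.12 in the DCs.

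Macrophage markers followed the labels. Of 26 measured genes of a macrophage identity list, 23 rose in mϕ and none fell (median difference 4.81, against 0.03 over all genes). *Cx3cr1*, the fractalkine receptor, gave 10.66, 10.57 and 11.13 in mϕ, against 4.98, 5.20 and 4.79 in CD103+CD11b- DCs (difference 5.80). *Adgre1*, a surface receptor of most tissue mϕ, gave 10.71, 10.41 and 10.91, against 5.24, 5.27 and 5.21 (5.44). *Mertk*, a kinase receptor for the uptake of dying cells, gave 7.31, 7.78 and 7.46, against 3.97, 4.04 and 3.86 (3.56). *Cd68*, often used as a mϕ marker, gave 11.61, 11.21 and 11.72 in mϕ, against 11.00, 10.96 and 10.98 in the DCs and was not called (0.54). Nor was *Folr2* called (0.89), except without CD64+ replicate 2 (1.02).

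Of 24 measured genes of a cDC1 identity list, 20 fell in mϕ and none rose (median -2.83). Most of the 24 are also in the paper's list of genes unique to CD103+CD11b- DCs among DC subsets. That list was drawn from these same CD103+CD11b- arrays, so the count is no separate check of the labels. Beside *Xcr1*, *Clec9a*, *Gpr33* and *Btla*, the largest differences were those of *Snx22* (-3.82) and of *Naaa* (-3.82), a lipid amidase with 7.92, 7.60 and 8.08 in mϕ, against 11.58, 11.68 and 11.80 in CD103+CD11b- DCs. The other 4 members were not called. *Batf3*, a transcription factor needed for cDC1, gave 9.51, 9.34 and 9.26 in mϕ, against 9.54, 9.49 and 9.47 in the DCs, a difference of -0.13 with SE 0.14. *Tlr12* (0.02), *Rab7b* (-0.66) and *Cadm1* (-0.84) also were not called, and are described with the shared genes. Of 16 genes of a pan-DC list, 11 fell in mϕ (median -1.53), with *Kit*, *Flt3*, the tryptophan-pathway enzyme *Haao* (-2.93), the receptor *P2ry10* (-2.87) and *Bri3bp* (-2.79) in front. *Zbtb46*, a transcription factor of conventional DCs, gave 6.16, 5.88 and 6.07 in mϕ, against 7.48, 7.21 and 7.35 in the DCs (-1.31, adjusted p = 3.18e-06).

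Of 17 markers of CD11b+ DCs, 9 rose in CD64+ mϕ relative to CD103+CD11b- DCs and none fell (median 1.24). Without CD64+ replicate 2, 8 rose. Most of these markers are also in the paper's list of genes that differ most between CD11b+ DCs and CD103+CD11b- DCs. That list was drawn from these same arrays and picks genes low in CD103+CD11b- DCs. The absence of falls was therefore nearly fixed in advance. *Sirpa*, the receptor for CD47 on mϕ and CD11b+ DCs, gave 11.15, 10.97 and 11.04 in mϕ, against 5.81, 6.36 and 6.05 in the DCs (difference 4.98). The galactose-type lectin *Mgl2* (4.87), the sialic acid-binding lectins *Cd33* (4.70) and *Siglece* (4.66), the inhibitory lectin *Clec4a2* (4.34) and *Clec10a* (2.95) rose as well. *Cd101* (0.05), *Trem1* (0.44) and *Irf4* (1.12, adjusted p = 0.0132) were not called. *Irf4* was called without CD64+ replicate 3 (1.51, adjusted p = 0.000552) and under other settings given in the closing section, and differed by 0.66 without CD64+ replicate 2.

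Growth factor receptors divided the populations. Of 12 measured, 5 rose and 2 fell in mϕ. Those that rose were *Csf1r*, the granulocyte colony-stimulating factor receptor *Csf3r* (3.70), the CSF2 receptor family member *Csf2rb2* (2.62) and both TGFβ receptor chains, of which *Tgfbr1* gave 9.66, 9.57 and 9.32 in mϕ, against 7.42, 7.30 and 7.33 in CD103+CD11b- DCs (2.16). Those that fell were *Flt3* and *Kit*.

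Of 40 myeloid transcription factors, 14 rose and 5 fell in mϕ. *Zeb2*, a repressor of the cDC1 programme in DC precursors, gave 9.52, 9.56 and 9.52 in mϕ, against 4.61, 4.68 and 5.09 in CD103+CD11b- DCs (difference 4.74, SE 0.12). *Tfec*, a mϕ member of the MiT family, gave 8.29, 6.42 and 7.83 in mϕ, against 3.91, 4.10 and 3.81 (3.57), with CD64+ replicate 2 the lowest of the CD64+ arrays. *Maf* (2.47), *Cebpb* (2.41) and the oxysterol receptor *Nr1h3* (2.29) rose too. *Id2*, an inhibitor of E proteins needed for cDC1, gave 7.64, 7.82 and 7.08 in mϕ, against 10.06, 10.07 and 10.12 in the DCs (-2.57). *Spi1*, which encodes PU.1, gave 11.15, 10.50 and 10.93, against 10.81, 10.71 and 10.60 (0.15, not called), so that its groups overlapped.

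**Figure D3:**
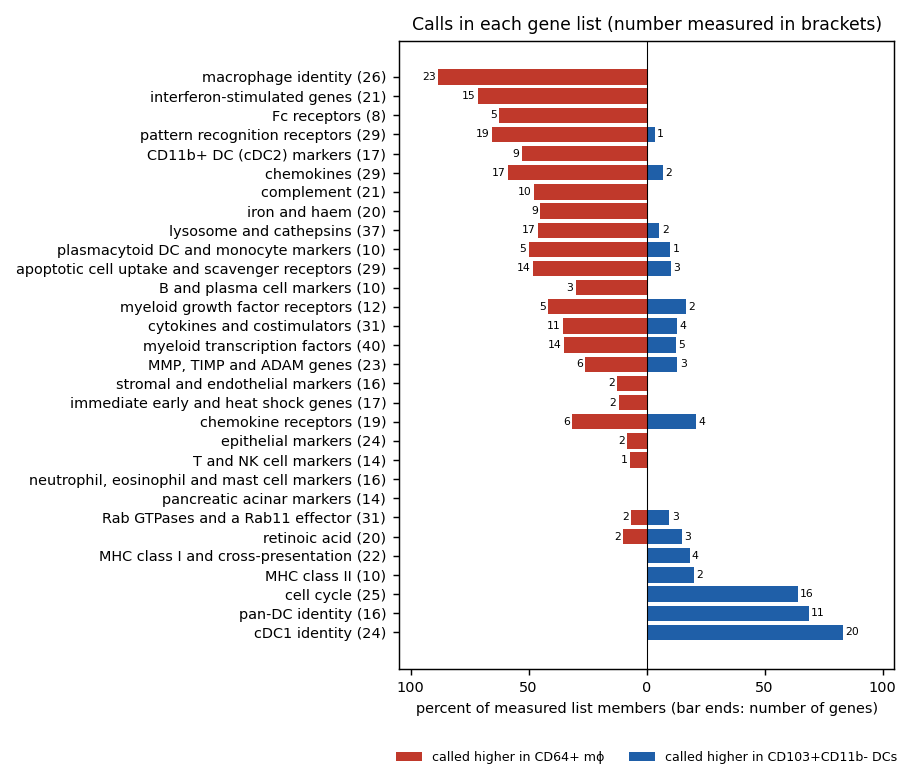
Percentage of the measured members of each gene list (number in brackets) called higher in CD64+ mϕ (left, red) or in CD103+CD11b- DCs (right, blue), with the number of genes at the bar ends. The macrophage identity list (23 of 26) and the cDC1 identity list (20 of 24) lie at opposite ends, and lists of interferon-stimulated and cell cycle genes have calls in 1 direction.

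Many genes of uptake and degradation rose in mϕ. Of 8 Fc receptor genes, 5 rose (median 4.35), among them the low-affinity IgG receptors *Fcgr3* (5.63) and *Fcgr2b* (4.32) and the common γ chain *Fcer1g* with 12.60, 12.31 and 12.59 in mϕ, against 7.34, 7.82 and 7.68 in CD103+CD11b- DCs (4.89). Of 21 complement genes, 10 rose and none fell. Beside those above, the alternative pathway factor *Cfb* gave 8.84, 7.53 and 8.77 in mϕ, against 5.75, 5.83 and 5.78 (2.59). Of 29 genes for the uptake of dying cells and for scavenging, 14 rose and 3 fell. The integrin chain *Itgb5* (5.23), *Stab1* (5.06) and the kinase receptor *Axl* (4.19) rose, whereas *Clec9a* and the fatty acid translocase *Cd36* (-1.91) fell. *Mfge8*, a bridging protein for dying cells, and the scavenger receptor *Marco* were not called (-0.42 and 0.04).

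Of 37 lysosomal genes, 17 rose and 2 fell in mϕ (median 0.92). The asparaginyl endopeptidase *Lgmn* gave 11.92, 11.53 and 12.13 in mϕ, against 6.89, 6.95 and 6.84 in CD103+CD11b- DCs (4.97, SE 0.14). Cathepsin genes in this group included *Ctsd* with 10.33, 9.84 and 10.33, against 6.82, 6.37 and 6.85 (3.49), and *Ctsc* (3.07). The acid phosphatases *Acp5* (3.41) and *Acp2* (3.27) rose, and *Lamp1*, a major protein of the lysosomal membrane, rose by less (2.19). The arylsulfatase *Arsb* went the other way, with 6.78, 6.69 and 7.06 in mϕ, against 9.90, 9.96 and 9.98 in the DCs (-3.11).

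Sequence just upstream of these genes was examined for 1 motif of lysosomal genes. The palindrome CACGTG is the core of the site bound by TFEB and related factors, reads alike on both strands and was searched over the 250 bases before the RefSeq transcription start (GRCm38.p6, first-listed start of each gene). It lay in 1098 of 15614 genes with a window (7.03%), in 49 of 641 called higher in mϕ (7.64%), in 23 of 491 called lower (4.68%), and in 7 of 31 lysosomal genes (22.6%). The 4 lysosomal genes that both rose in mϕ and had a match are shown, with the motif in capitals, because their levels were given above or, for *Ctsf* (1.48) and *Ctsl* (3.04), because they complete this set. The stretches lie at chr7:142388043-142388077, chr19:4855062-4855115, chr13:64370727-64370770 and chr8:13159076-13159129, and read 5′ to 3′ on the strand of the gene. Only the stretch around the first match is printed, and *Ctsd* had 2 matches in its window and *Lamp1* 4.
Ctsd: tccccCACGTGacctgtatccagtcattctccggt
Ctsf: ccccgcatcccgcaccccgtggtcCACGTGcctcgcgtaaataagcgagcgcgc
Ctsl: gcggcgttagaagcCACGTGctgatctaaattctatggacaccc
Lamp1: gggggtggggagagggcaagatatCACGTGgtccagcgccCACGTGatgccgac

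Of 20 iron and haem genes, 9 rose in mϕ and none fell (median 0.62). Transferrin, *Trf*, gave 10.79, 10.46 and 10.91 in mϕ, against 6.94, 7.33 and 6.91 in CD103+CD11b- DCs (3.66). Ceruloplasmin, *Cp* (3.38), the biliverdin reductase *Blvrb* (3.30), *Hebp1* (2.55), the haem oxygenase *Hmox1* (2.42) and the haemoglobin-haptoglobin receptor *Cd163* (2.99) followed, the last with 6.92, 6.40 and 6.26, against 3.55, 3.76 and 3.31. Of 23 metalloprotease, inhibitor and ADAM genes, 6 rose and 3 fell. *Mmp14* (4.80), *Adamdec1* (4.36) and *Mmp2* (3.36) rose with *Mmp9* and *Mmp13*, and *Adam8* fell.

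Most interferon-stimulated genes rose in mϕ. Of 21 measured, 15 rose and none fell (median 2.26). *Rtp4*, which is induced by type I interferon, gave 9.36, 8.97 and 9.52 in mϕ, against 4.38, 4.64 and 4.05 in CD103+CD11b- DCs (4.93). *Ifit3*, a protein against viral RNA, gave 9.93, 9.30 and 9.33, against 5.90, 5.11 and 5.13 (4.14). *Gbp3* (3.95), the oligoadenylate synthetases *Oas2* (3.74) and *Oas1a* (3.35) and *Oasl2* (3.09) rose too. *Rsad2*, which encodes viperin, gave 7.86, 9.01 and 6.56, against 5.47, 5.44 and 5.20 (2.44, SE 0.39), with a wide range over the CD64+ arrays, and was not called in a fit of the 6 arrays alone (adjusted p = 0.0176). *Cxcl10* gave means of 11.57 in mϕ and 9.55 in the DCs (2.02). *Bst2* (1.10) lost its call without CD64+ replicate 1 (0.89) or CD103+CD11b- replicate 1 (0.997, just under the threshold). *Mx1* (0.32) and *Stat2* (-0.34) were not called.

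The core of the interferon-stimulated response element, bound by interferon regulatory factors and ISGF3, was searched as GAAANNGAAA on both strands of the same 250 bases. It lay in 457 of 15614 genes (2.93%), in 55 of 641 genes called higher in mϕ (8.58%) and in 11 of 491 called lower (2.24%). Of interferon-stimulated genes with a window, 9 of 14 had it (64.3%), and 8 of the 11 of these that rose (72.7%). It lay in 0 of 25 genes shared by both populations. *Stat2* had a match and did not rise. Matches are shown in capitals for 5 genes that rose and for *Stat2*, with up to 24 bases on each side. Only the stretch around the first match of a gene is printed, and *Ifit3* had 2 matches in its window. A match on the opposite strand appears as TTTCNNTTTC, and capitals run on where matches overlap, as in *Oas1a* and *Gbp3*. The stretches lie at chr19:34583349-34583406 (*Ifit3*), chr12:26456539-26456596 (*Rsad2*), chr5:120907526-120907569 (*Oas1a*), chr3:142559975-142560032 (*Gbp3*), chr5:92349069-92349126 (*Cxcl10*) and chr10:128270252-128270309 (*Stat2*).
Ifit3: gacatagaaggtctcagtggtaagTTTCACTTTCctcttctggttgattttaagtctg
Rsad2: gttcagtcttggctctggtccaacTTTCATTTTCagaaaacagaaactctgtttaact
Oas1a: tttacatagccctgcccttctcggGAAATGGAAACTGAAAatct
Gbp3: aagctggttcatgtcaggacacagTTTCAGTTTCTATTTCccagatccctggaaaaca
Cxcl10: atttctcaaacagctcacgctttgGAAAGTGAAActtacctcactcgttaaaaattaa
Stat2: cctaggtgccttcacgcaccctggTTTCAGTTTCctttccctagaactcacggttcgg

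These letters show where the motif occurs and not whether a factor was bound in either population.

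Sensors of microbial products were distributed unevenly. Of 29 pattern recognition genes, 19 rose and 1 fell in mϕ (median 1.71). The sensors of bacterial surfaces *Tlr4*, with 8.11, 7.16 and 8.05 in mϕ, against 3.50, 3.33 and 3.31 in CD103+CD11b- DCs (4.39), its co-receptor *Cd14* (5.21) and *Tlr1* (4.14) rose. So did the sensors of single-stranded RNA *Tlr7*, with 8.77, 8.11 and 8.41, against 3.46, 3.51 and 3.56 (4.92), and *Tlr8* (3.43). *Tlr3*, the sensor of double-stranded RNA, was the gene that fell, with 7.43, 6.53 and 7.70 in mϕ, against 10.77, 10.64 and 10.72 in the DCs (-3.49). *Tlr9* rose by 1.29.

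Chemokines and their receptors showed opposed sets. Of 29 chemokines, 17 rose and 2 fell in mϕ. The monocyte attractants *Ccl12* (5.92), *Ccl8* (5.91) and *Ccl2* rose with *Pf4* and *Ccl7*, and *Ccl2* gave 10.45, 10.24 and 10.29 in mϕ, against 5.58, 5.86 and 5.97 in CD103+CD11b- DCs (4.53). The ligands of CCR4 fell: *Ccl17* gave 6.07, 6.39 and 6.67, against 10.06, 9.83 and 9.77 (-3.51), and *Ccl22* gave 5.56, 5.52 and 5.41, against 9.19, 8.53 and 8.54 (-3.25). *Cxcl9* was not called (0.15). Of 19 receptors, 6 rose and 4 fell. *Cx3cr1*, *Ccr1* (5.14), the chemerin receptor *Cmklr1* (5.00), *Ccr2* (2.90) and the non-signalling receptor *Ccrl2* (2.68) rose. *Xcr1*, the gut-homing receptor *Ccr9* (-2.42), *Cxcr3* (-1.93) and *Ccr7* fell. *Ccr7* gave 6.41, 7.13 and 6.14 in mϕ, against 8.52, 7.87 and 7.99 in the DCs (-1.57).

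Of 31 cytokine and costimulation genes, 11 rose and 4 fell in mϕ. *Il10*, a regulatory cytokine of gut mϕ, gave 7.63, 8.46 and 7.78 in mϕ, against 4.22, 4.56 and 4.19 in CD103+CD11b- DCs (3.63). *Osm* (3.22), *Il1b* (2.71), *Il18* (2.32) and the interleukin 1 receptor antagonist *Il1rn* (2.23) rose as well, and *Il1b* gave 11.30, 11.97 and 11.07 in mϕ, against 8.68, 9.16 and 8.38. *Il12b*, the p40 chain of interleukins 12 and 23, fell, with 5.28, 5.64 and 5.50 in mϕ, against 7.85, 7.20 and 7.04 in the DCs (-1.89). *Lif* fell (-3.19) with 5.37, 7.16 and 4.89 in mϕ, against 8.43, 9.41 and 9.14. *Cd86* fell narrowly (-1.06) and lost its call without CD103+CD11b- replicate 1 (-0.98). *Tnf* (0.48), *Cd40* (0.68) and *Il6* (0.03) were not called.

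Most MHC genes were not called. Of 10 MHC class II genes, none rose and 2 fell (median 0.05). *H2-Aa* gave 12.26, 12.47 and 12.23 in mϕ, against 12.18, 12.18 and 12.17 in CD103+CD11b- DCs (0.14). The genes that fell were *H2-Oa* (-3.24) and *H2-Ob* (-3.12), the chains of H2-O, which restrains peptide loading by H2-M. *H2-Ob* gave 6.12, 7.13 and 6.37 in mϕ, against 9.60, 9.75 and 9.64 in the DCs. Of 22 genes of the class I pathway and cross-presentation, 4 fell and none rose (median -0.21). *Wdfy4*, which cDC1 need to cross-present cell-associated antigen, gave 8.01, 7.77 and 7.42 in mϕ, against 10.94, 10.88 and 10.94 in the DCs (-3.19). The peptide transporter chain *Tap1* (-1.32) and the vesicle GTPases *Rab11a* (-1.31) and *Rab43* (-1.26) fell by less, while *B2m* was not called (0.51). Over 31 genes of Rab GTPases and a Rab11 effector, 2 rose (6.45%, against 4.04% of all genes) and 3 fell (9.68%, against 2.99%). *Rab20* (2.14) and the effector *Rab11fip5* (1.46) were up and *Rab39* (-1.44) down.

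Of 25 cell cycle genes, 16 fell in mϕ, 9 were not called and none rose (median -1.30). The kinase *Bub1* gave 5.61, 4.87 and 5.21 in mϕ, against 7.25, 7.36 and 7.66 in CD103+CD11b- DCs (-2.19). *Cdca8* (-2.10), *Rrm2* (-2.05), *Ccnb2* (-2.05), *Plk1* (-1.90) and *Kif11* (-1.87) fell alike, and *Mki67*, which encodes Ki67, gave 7.36, 7.74 and 7.67 in mϕ, against 8.96, 9.23 and 9.29 (-1.57). The motif TTTGAA of promoters repressed outside the cell cycle, searched like those above, lay in 2143 of 15614 genes (13.7%) and in 6 of 21 cell cycle genes (28.6%). Among called genes it stayed near the share of all genes, with 82 of 641 called higher in mϕ (12.8%) and 72 of 491 called lower (14.7%). In RNA of bulk sorted cells, fewer cycling cells and less such RNA per cell cannot be told apart. Among 20 genes of retinoic acid metabolism, 2 rose (10%, against 4.04% of all genes) and 3 fell (15%, against 2.99%). *Aldh1a2*, which makes retinoic acid, gave 5.11, 5.05 and 5.35 in mϕ, against 8.04, 7.90 and 7.97 in the DCs (-2.80). The short-chain dehydrogenase *Dhrs9* (-2.23) and the retinoic acid-degrading *Cyp26b1* (-2.17) also fell. *Dhrs3* (2.28) and the enterocyte retinol-binding protein *Rbp2* (1.49) rose.

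A set of genes was high in mϕ and CD103+CD11b- DCs and low in CD11b+ DCs. These were chosen by their measured values: each of mϕ and CD103+CD11b- DCs had to be called higher than both CD103+CD11b+ and CD103-CD11b+ DCs, so the 4 differences are given without a test. The set held 35 genes (0.176%), with a smallest of the 4 differences of 1.002 to 3.53 (median 1.38). *Gatm* (1.002) lay just inside the threshold and *Slc9a3r2* (0.99) just outside. Between mϕ and CD103+CD11b- DCs themselves, 4 of the 35 rose in mϕ, 4 fell and 27 were not called. Over all genes 4.04% rose and 2.99% fell. The choice did not use this difference itself but did use the arrays of both populations, so these counts are not separate from it. Without CD64+ replicate 2 the set held 40 genes, including all 35. The 4 contrasts share arrays. Over all genes, 3.34% were higher and 2.34% lower in mϕ than in CD103+CD11b+ DCs, and 3.02% and 2.16% than in CD103-CD11b+ DCs. For CD103+CD11b- DCs these shares were 1.32% and 1.89% relative to CD103+CD11b+ DCs, and 1.26% and 1.91% relative to CD103-CD11b+ DCs.

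*Rab7b*, a late endosomal GTPase, had the largest gap. It gave 7.46, 7.91 and 7.30 in mϕ and 8.32, 8.16 and 8.18 in CD103+CD11b- DCs, against 4.13, 3.83 and 4.11 in CD103+CD11b+ DCs and 4.23, 4.24 and 3.63 in CD103-CD11b+ DCs. *Tlr12*, a sensor of parasite profilin, gave 10.83, 9.22 and 10.61 in mϕ and 10.14, 10.14 and 10.31 in CD103+CD11b- DCs, against 5.95, 6.69 and 6.59 in CD103+CD11b+ DCs and 6.88, 7.09 and 7.61 in CD103-CD11b+ DCs. The mϕ and CD103+CD11b- arrays overlapped for this gene. *Cadm1*, an adhesion molecule used to mark cDC1, gave 9.33, 7.78 and 9.07 in mϕ and 9.47, 9.36 and 9.88 in CD103+CD11b- DCs, against 5.67, 5.62 and 6.14 in CD103+CD11b+ DCs and 5.79, 5.69 and 5.73 in CD103-CD11b+ DCs. In both *Tlr12* and *Cadm1* the lowest of the CD64+ arrays was replicate 2, without which mϕ minus CD103+CD11b- DCs was 0.52 for *Tlr12* and -0.37 for *Cadm1*, neither called.

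*Irf8*, the master transcription factor of cDC1 that mϕ also use, differed among the populations. It gave 9.04, 9.54 and 9.66 in mϕ and 11.52, 11.33 and 11.76 in CD103+CD11b- DCs, against 7.08, 7.66 and 7.72 in CD103+CD11b+ DCs and 7.72, 7.96 and 7.89 in CD103-CD11b+ DCs, and it fell in mϕ relative to CD103+CD11b- DCs (-2.12, adjusted p = 2.90e-07). *Cxcr3* (-1.93), *Cd36* (-1.91) and the acyltransferase *Agpat3* (-1.20) fell likewise, and the call of *Agpat3* ended without CD64+ replicate 2 (-0.94). The tetraspanin *Cd81* rose in mϕ (1.44), with 12.66, 12.74 and 12.70 in mϕ and 11.36, 11.13 and 11.28 in CD103+CD11b- DCs, against 8.26, 7.95 and 8.67 in CD103+CD11b+ DCs and 9.63, 8.86 and 9.25 in CD103-CD11b+ DCs. The semaphorin *Sema6d* (2.52) and the proton-sensing receptor *Gpr65* (1.22) rose as well.

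Among the shared genes not called between mϕ and CD103+CD11b- DCs, *Mpeg1*, which encodes the pore-forming perforin-2, differed by 0.10. It gave 10.96, 10.76 and 11.04 in mϕ and 10.86, 10.83 and 10.78 in CD103+CD11b- DCs, against 8.89, 9.17 and 9.14 in CD103+CD11b+ DCs and 9.37, 8.98 and 9.60 in CD103-CD11b+ DCs. The secreted nuclease *Dnase1l3* gave 11.52, 10.67 and 11.49 in mϕ and 10.91, 10.79 and 10.92 in CD103+CD11b- DCs, against 9.55, 9.04 and 9.21 in CD103+CD11b+ DCs and 9.25, 8.64 and 9.33 in CD103-CD11b+ DCs. The amino acid transporter *Slc7a8* (mϕ minus CD103+CD11b- DCs, 0.45), the UDP-glucose receptor *P2ry14* (-0.43), the collagen hydroxylase *P3h2* (-0.55), the peptidase *Cpq* (0.10), the cation channel *Trpm2* (-0.42), *Lima1* (-0.66), *Gkap1* (0.28) and the lymphocyte growth factor *Il15* (0.91) were not called either. That does not make their levels alike. *P3h2*, *Lima1* and *Il15* had limma adjusted p of 0.00165, 0.00204 and 0.00202 and missed only the threshold of size. Their mϕ and CD103+CD11b- arrays did not overlap, which held for 16.8% of all genes with mϕ above and 15.7% with mϕ below. Without CD64+ replicate 2 the differences were 0.78 for *Slc7a8*, -0.11 for *P2ry14*, 0.40 for *Cpq*, 0.61 for *Gkap1* and 0.64 for *Dnase1l3*, none of them called.

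The CD103-CD11b- DCs took no part in the choice. Of the 35 genes, 25 were higher in mϕ than in CD103-CD11b- DCs (3.73% of all genes were). In CD103+CD11b- DCs, 24 had higher signals than in CD103-CD11b- DCs (1.05% of all genes did). Both populations were higher for 19 (0.246% of all genes). None was lower in either, where 2.57% of all genes were lower in mϕ and 1.61% in CD103+CD11b- DCs. The mϕ and CD103+CD11b- arrays are the ones that chose the genes for being high, so these counts are no separate evidence for the set. In CD103-CD11b- DCs *Irf8* gave 10.05, 10.11 and 10.05, above its levels in mϕ, and *Gpr65* gave 9.17, 9.20 and 9.20, just below its levels in CD103+CD11b- DCs.

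**Figure D4:**
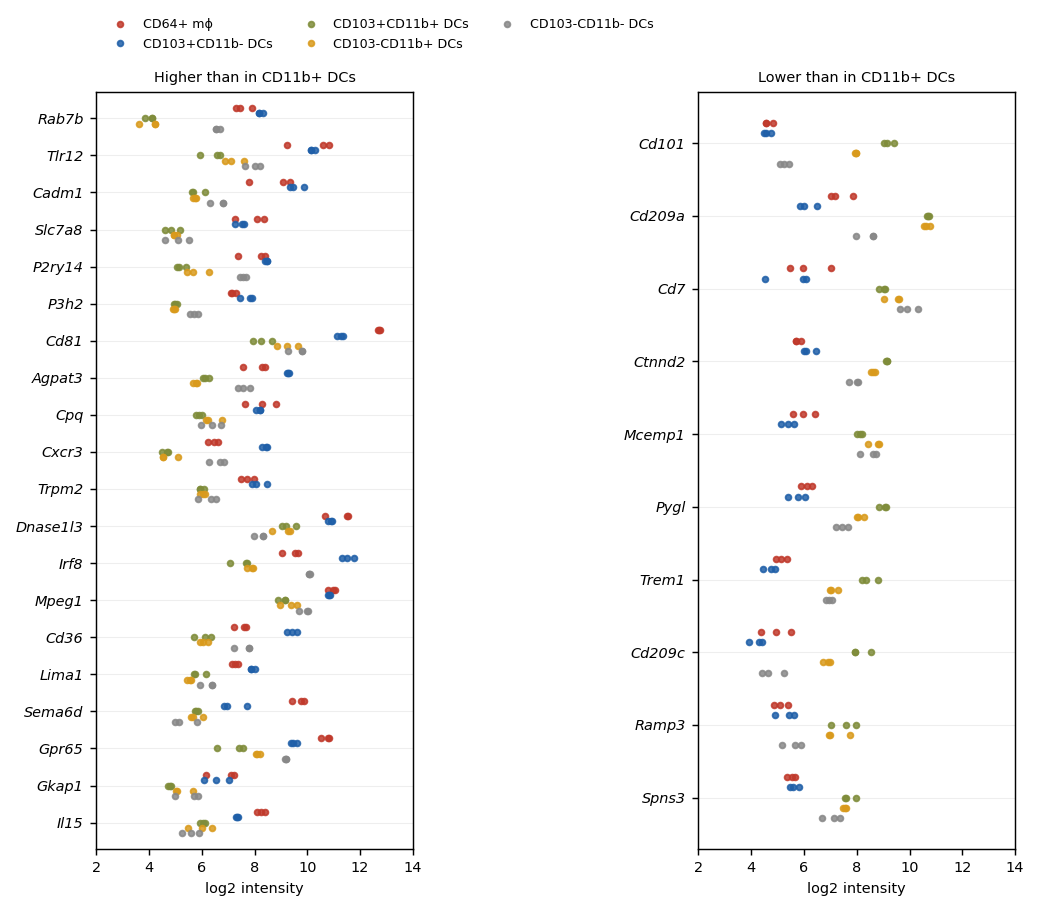
Log2 intensity on all 15 arrays (points, coloured by population) for 20 genes higher (left) and 10 genes lower (right) in both CD64+ mϕ and CD103+CD11b- DCs than in both CD11b+ DC populations. *Rab7b* lies at 7.30 to 8.32 in the first pair and at 3.63 to 4.24 in CD11b+ DCs, and *Cd101* at 4.49 to 4.84 against 7.93 to 9.42.

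The reverse set, low in both populations relative to both CD11b+ DC populations, held 51 genes (0.256%). Of these, 6 rose and 8 fell in mϕ relative to CD103+CD11b- DCs and 37 were not called, where 4.04% and 2.99% of all genes rose and fell. The arrays of both populations chose these genes too. *Pram1* (1.02) lay just inside the threshold and *Slc44a2* (0.98) just outside. *Cd101*, an inhibitory receptor, gave 4.84, 4.57 and 4.57 in mϕ and 4.49, 4.57 and 4.76 in CD103+CD11b- DCs, against 9.42, 9.03 and 9.16 in CD103+CD11b+ DCs and 7.96, 7.93 and 7.98 in CD103-CD11b+ DCs. The lectin *Cd209a* gave 7.17, 7.87 and 7.01 in mϕ and 5.99, 6.49 and 5.85 in CD103+CD11b- DCs, against 10.69, 10.75 and 10.66 in CD103+CD11b+ DCs and 10.76, 10.63 and 10.56 in CD103-CD11b+ DCs. Its rise in mϕ (1.24) fell just under the threshold without CD64+ replicate 2 (0.98) and was not called in a fit of the 6 arrays alone (adjusted p = 0.0131). *Cd7*, *Ctnnd2*, *Mcemp1*, the glycogen phosphorylase *Pygl*, the activating receptor *Trem1*, *Cd209c*, *Ramp3* and *Spns3* were the others of the 10 with the largest gap, and none of these 8 was called between mϕ and CD103+CD11b- DCs. *Irf4*, the transcription factor of CD11b+ DCs, belonged to the set with a smallest difference of 1.57.

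In 327 genes (1.64%) the mean log2 signal reached 10 in both populations, and for 166 of these (0.833% of all genes) the 95% interval of the difference lay within 0.5 on either side of 0. The 10 of the 166 with the highest signal, which does not rank abundance between genes, included *Rps29*, *Rplp1*, *Rpl28*, *Rps14*, *Rps28*, *Eef1a1*, *Actb* and *Baiap2l1*. *Cd74*, the invariant chain of MHCII, was among them with 13.07, 13.21 and 13.06 in mϕ, against 13.06, 12.99 and 12.93 in CD103+CD11b- DCs (0.12), as was *Ly6e* with 12.92, 12.65 and 12.91, against 12.72, 12.69 and 12.77 (0.10).

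Markers of other cell types moved with single arrays or with the populations. The mean signal of 24 epithelial markers was 6.21, 7.97 and 6.08 on the CD64+ arrays, against 7.24, 7.06 and 7.48 on the CD103+CD11b- arrays. With all arrays 2 of these genes rose in mϕ (*Fabp1*, 1.97, and *Fabp2*, 1.62) and none fell, whereas without CD64+ replicate 2 the same number rose and 14 fell. The call of *Fabp2* ended without any 1 of 5 of the 6 arrays, with adjusted p of 0.0134 to 0.0461. *Rbp2*, which is named above among the retinoic acid genes, is an enterocyte gene too. The mean of 14 pancreatic acinar markers was 4.74, 6.70 and 4.82 on the CD64+ arrays, against 4.84, 8.40 and 5.11 on the CD103+CD11b- arrays, and none was called. *Ctrb1* gave 4.85, 10.10 and 4.62, against 4.80, 11.67 and 6.56.

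Of 10 B and plasma cell markers, 3 rose in mϕ, *Cd79b* (2.90), *Cd79a* (1.96) and *Tnfrsf17* (1.58), with a list mean of 6.61 to 7.32 in mϕ, against 5.89 to 5.96 in CD103+CD11b- DCs. Of 14 T and NK cell markers only *Cd3g* rose (7.14%, against 4.04% of all genes), with list means of 5.22 to 5.38, against 4.58 to 5.30. The difference of *Cd3g* was 1.47, and it was not called in a limma fit of the 6 arrays alone (adjusted p = 0.0108). Of 10 plasmacytoid DC and monocyte markers, 5 rose and 1 fell (2 fell without CD64+ replicate 2). *Ccr2* (2.90), *Siglech* (1.75), *Ly6d* (1.67), *Tcf4* (1.60) and *Bst2* (1.10) rose, and *Ccr9* (-2.42) fell. Of 16 stromal and endothelial markers, *Pecam1* (2.43) and *Lyve1* (1.52), which mϕ can also express, rose (12.5%, against 4.04% of all genes). None of 16 granulocyte and mast cell markers was called, at list means of 4.0 to 4.14, against 3.94 to 3.96. Of 17 immediate early and heat shock genes, which respond to tissue digestion, *Socs3* (2.72) and *Ier3* (2.18) rose and none fell, with 2 falling when CD64+ replicate 2 was left out. The part of these RNAs in the results above was not tested.

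**Figure D5:**
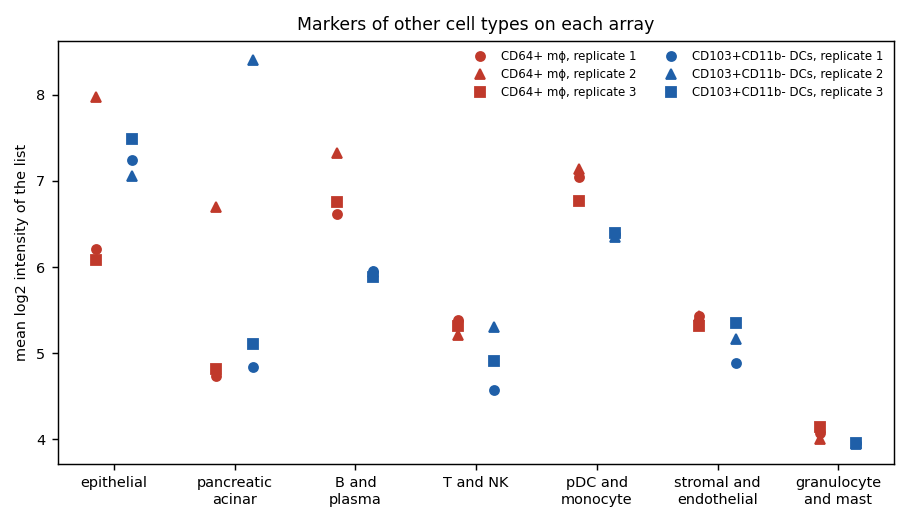
Mean log2 intensity of marker lists of other cell types on each CD64+ (red) and CD103+CD11b- (blue) array, with a symbol for each replicate number. CD64+ replicate 2 is high in epithelial (7.97) and pancreatic (6.70) markers, and CD103+CD11b- replicate 2 in pancreatic markers (8.40).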

How the data were processed

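The authors' deposited values are log2 signals of GeneChip Mouse Gene 1.0 ST arrays after Robust Multi-array Average processing, which corrects background, equalizes the distributions of the arrays and summarizes probesets. It removes differences in total RNA, and no detection call came with the values. Of 35556 probesets, 21789 had 1 gene symbol. For the 999 genes with several, the probeset with the highest mean was taken, leaving 19938 genes. Of 623 list genes, 587 were matched. Means of 5 populations were fitted with limma 3.58.1 in R 4.3.3 to all 15 arrays (10 residual degrees of freedom), with Benjamini-Hochberg adjustment over all genes. On simulated arrays the test called 97 of 100 genes changed by 1.5, 99 of 100 changed by 3, and 1 of 19738 unchanged genes. The simulated noise was independent between arrays, with 1 spread per gene for all populations. Real CD64+ arrays spread more than CD103+CD11b- arrays (median SD 0.156 and 0.106), so these rates need not hold for this comparison. The number of arrays limits the precision.

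The members, the 30 gene lists and the motifs, which were kept from a longer set searched, were chosen with earlier results of these data known. Genes were named by a rule: sort genes; the 15 largest differences per direction that did not overlap; per list up to 6 called members, population-defining genes and up to 3 not called; 20 shared high, 10 shared low and 10 level genes. Unnamed gene models were not named. *Timd4*, *Cd4*, *Lamp1*, *Ctsf*, *Ctsl*, *Rsad2*, *Cxcl10*, *Tlr9*, *Ccl17*, *Ccl22*, *Ccr7*, *Il12b*, *Cd86*, *Mki67*, *Defa24*, *Reg3b*, *Krt8*, *Ctrb1* and the genes next to thresholds were chosen after their values were seen. Alternatives were 6 arrays only, a replicate block, the median probeset, cyclic loess, a filter on dim genes, a trended robust spread, array weights, adjusted p under 0.05, treat, the methods' t-test and each array left out.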

Additional observations from a re-analysis of the deposited data

How the results depend on the processing

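The counts of genes higher (805) and lower (596) in CD64+ mϕ stayed within 1.5 times under the alternatives except a pair of stricter tests. Testing against a log2 difference of 1 with treat left 412 higher, 204 lower, 8 high in both and 12 low in both. The methods' t-test, at the thresholds used here, left 264 higher and 157 lower. At its unadjusted threshold of 0.05 and with no condition on size it gave 2327 and 2392. With a log2 difference over 1 these were 808 and 592. After Benjamini-Hochberg adjustment, at 0.05 and again with no condition on size, it gave 918 and 913. With each of the 15 arrays left out in turn, genes higher numbered 784 to 861, genes lower 583 to 645, genes high in both 30 to 40, genes low in both 46 to 53 and genes at the same high level 145 to 171. The array numbers were not taken as pairs, as deviations of the same-numbered CD64+ and CD103+CD11b- arrays correlated at -0.03, 0.04 and -0.07. Pancreatic acinar markers were nevertheless highest on replicate 2 in 4 of 5 populations, and whether the numbers mark a shared preparation was not tested. With the replicate number as a block, 811 genes were higher, 601 lower, 36 high in both, 55 low in both and 171 level. Cyclic loess, which moved the median difference to 0.003 from 0.03, gave 868 higher and 511 lower. Among 223 genes tracked singly, 166 were called, and 5 of these lost their call without 1 of the 6 arrays compared. Over all alternatives 117 calls were lost, counted per gene and setting, most of them under the methods' t-test and treat. The methods' t-test lost *Irf8* (adjusted p = 0.0176), *Id2* (0.0114), *Tlr3* (0.0156) and *Mki67* (0.015) among others. Treat lost *Zbtb46* (adjusted p = 0.426), *Tap1* (0.752) and *Ccr7* (0.526) among others. *Irf4* gained a call with the replicate block (1.12, adjusted p = 0.00342), cyclic loess (1.26, 0.0099), the filter on dim genes (0.00734) and a threshold of 0.05 (0.0132), and *Cd209c* without CD64+ replicate 3 (1.02). *Defa24* (-5.60), *Reg3b* (-2.19) and *Krt8* (-1.57) were called lower without CD64+ replicate 2. No called gene tracked changed sign under any alternative run.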
